A study of Mus musculus with 2 samples.

Results

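The genes described here are Myl6, which encodes the essential light chain of non-muscle and smooth muscle myosin, and the tropomyosin genes Tpm1, Tpm2, Tpm3 and Tpm4. Every isoform counted for these 5 genes in the long-read isoform table was taken by its Ensembl gene identifier, which gave 104 isoforms of the 68065 counted and 5 genes of 12032. Of the 104 isoforms, 20 carry the name of a reference transcript and 84 are unnamed. Unnamed isoforms are given by the start and end that the table prints, and their exon structures were not used. Each isoform was followed in 2 classes of cell barcode. The first holds barcodes with 3000 to 15000 short-read UMIs (unique molecular identifiers, which count captured RNA molecules once) and 0 UMIs of the cell cycle genes Rrm2, Top2a and Cdk1, and is called shallow non-cycling. The second holds barcodes with at least 20000 UMIs and is called deep.

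The cells were muscle stem cells (MuSCs), the resident stem cells of skeletal muscle, from hindlimbs of C57BL6 mice carrying Pax7creERT2 and the Cre reporter R26-eYFPfl/fl. All mice were 3 months old and had tamoxifen (100 µL a day at 20 mg/ml, 5 days), and their YFP+ cells were sorted, quiescent cells from uninjured muscle 2 weeks after the last dose and activated cells 72 h after 40 µL of 1.2% barium chloride was injected into the lower hindlimb. Cre is driven by Pax7, so the sort holds cells that expressed Pax7 during the tamoxifen treatment and their descendants. Both kinds of cell entered 1 droplet capture with 10x 3′ chemistry, and the gel beads in emulsion were divided. The 10% aliquot was sequenced on both Illumina and nanopore instruments, the 90% aliquot on Illumina only. Because no label gives the origin of a barcode and there was 1 capture, the classes are ranges of depth, cells are not replicates, and no test was run.

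Tropomyosins are coiled-coil dimers that lie along the actin filament and set which myosins and other proteins can bind it. Among the tropomyosin genes, many proteins arise through alternative promoters, alternative sixth exons and alternative last exons, though not every gene uses each of these. The muscle and non-muscle forms differ in these exons. Myl6 is spliced in or out of 1 short exon near its 3′ end, which changes the last residues of the light chain. In muscle precursors, tropomyosins of the cytoskeleton are progressively joined by sarcomeric forms as cells differentiate.

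The exons that separate the isoforms are shown first, since the values below turn on them. They were read from the transcript sequences of Gencode vM21, and their positions are those of its exons on GRCm38. In Myl6, exon 6 of 7 of Myl6-206 has 45 bases (chr10:128491720-128491764, minus strand) and is skipped in Myl6-201. Both reading frames have 151 codons and part after the same shared exon. Capitals mark the bases from there to the stop codon, which lie at chr10:128491736-128491764 in Myl6-206 and at chr10:128491005-128491033 in Myl6-201.
Myl6-206: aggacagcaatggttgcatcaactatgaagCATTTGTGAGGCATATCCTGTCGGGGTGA
Myl6-201: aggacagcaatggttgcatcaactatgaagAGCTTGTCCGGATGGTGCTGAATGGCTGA
Of these 29 bases, 15 are the same in both forms. The alternative sixth exons of Tpm1 lie at chr9:67032466-67032541 (6a) and chr9:67031951-67032026 (6b), and those of Tpm2 at chr4:43519003-43519078 (6a) and chr4:43518644-43518719 (6b), all on the minus strand. Capitals mark the bases that differ within a pair.
Tpm1 exon 6a: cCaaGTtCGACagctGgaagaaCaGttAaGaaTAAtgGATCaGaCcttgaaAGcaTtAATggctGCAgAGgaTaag
Tpm1 exon 6b: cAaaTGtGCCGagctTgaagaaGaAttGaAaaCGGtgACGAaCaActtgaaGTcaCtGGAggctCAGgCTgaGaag
Tpm2 exon 6a: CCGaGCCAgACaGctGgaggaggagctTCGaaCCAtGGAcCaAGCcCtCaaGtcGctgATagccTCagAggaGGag
Tpm2 exon 6b: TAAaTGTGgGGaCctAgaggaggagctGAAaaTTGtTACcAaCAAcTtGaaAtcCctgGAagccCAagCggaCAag
Each of these exons has 76 bases. Within a gene the pair shares 43 bases in Tpm1 and 41 in Tpm2. Across the genes, the 6a exons were identical at 64.5% of positions and the 6b exons at 73.7%, so each exon was closer to its counterpart in the other gene than to its partner. Tpm1 also ends in alternative ways. Exon 9a (chr9:67029664-67029742) is followed by an upstream last exon, and exon 9d (coding part at chr9:67023362-67023441) is the downstream last exon.
Tpm1 exon 9a: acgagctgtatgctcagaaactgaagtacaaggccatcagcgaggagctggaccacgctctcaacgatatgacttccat
Tpm1 exon 9d: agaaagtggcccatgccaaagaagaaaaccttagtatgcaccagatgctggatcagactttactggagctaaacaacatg
Aligned from the first base, these were identical at 43.0% of positions. In the striated muscle form of Tpm1, exons 6b and 9a are used together.

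The 10% aliquot held 157 shallow non-cycling barcodes (median 6729 UMIs) and 79 deep barcodes (median 65499 UMIs), and the 90% aliquot held 1243 (median 4680) and 606 (median 47106). Long reads gave 1382498 UMIs in the shallow non-cycling and 4628237 in the deep barcodes of the 10% aliquot. All 236 barcodes of the classes in the 10% aliquot also occur in the table of the 90% aliquot. Their profiles correlated best with the same barcode in 153 of 157 shallow non-cycling and 79 of 79 deep cases. The aliquots are therefore not independent, and values of the 90% aliquot are also given for the 1077 and 507 barcodes with under 1000 UMIs in the 10% aliquot, called unshared. Of 8 quiescence markers, the summed level in the 10% aliquot was 530 CPM (the UMIs of a gene per 1000000 UMIs of the class) in shallow non-cycling and 49.8 CPM in deep barcodes. Chrdl2 (155 against 0.196 CPM), Heyl (126 against 11.8) and Spry1 (124 against 2.94) were higher in shallow non-cycling barcodes. Of the activation markers that the rule did not use, Myod1 was higher there (1106 against 185 CPM), while Myog (1.79 against 33.1), Mki67 (0.897 against 30.8), Ccnb1 (0.897 against 46.3) and Mcm5 (3.59 against 27.5) were lower. The class is therefore called by its rule. Markers of other cells summed in the 10% aliquot to 317 and 70.0 CPM for 6 immune genes, to 85.2 and 78.6 CPM for 6 smooth muscle and pericyte genes, to 61.0 and 36.7 CPM for 6 myofibre genes, to 59.2 and 0.981 CPM for 2 Schwann genes and to 29.6 and 47.9 CPM for 5 fibro-adipogenic genes. Endothelial (4 genes) and erythroid (2 genes) lists stayed under 10 CPM in both. At least 3 UMIs of the immune list were found in 1 shallow non-cycling and 3 deep barcodes, and of the Schwann list in 1 shallow non-cycling barcode. In the 90% aliquot the sums were 245 and 4.08 CPM for immune, 1.86 and 0.569 CPM for Schwann, 56.3 and 24.5 CPM for fibro-adipogenic, 92.4 and 48.0 CPM for smooth muscle and 83.5 and 66.7 CPM for myofibre genes. As an alternative, barcodes with at least 3 UMIs summed over the immune, endothelial, fibro-adipogenic and smooth muscle and pericyte lists were left out. The myofibre, Schwann and erythroid lists were not used for this. In the 10% aliquot 139 of 157 shallow non-cycling and 47 of 79 deep barcodes were left. A fixed number of UMIs is reached more easily at higher depth. Results that changed without these barcodes are given with both values, and the part of other cells in the other results was not tested.

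At the gene level, Tpm1 and Tpm2 were higher in deep barcodes, Tpm3 was close to equal or slightly higher in shallow non-cycling barcodes, and Myl6 and Tpm4 were slightly higher in deep barcodes. After 10 CPM were added to each level, 2 of the 5 genes, Tpm1 and Tpm2, were at least 2-fold higher in deep barcodes of the 10% aliquot, where 18.6% of the 7284 genes with at least 10 CPM were. The same 2 genes were past this fold in the 90% aliquot (background 18.1%) and in its unshared barcodes (18.2%). None of the 5 was 2-fold higher in shallow non-cycling barcodes, as 11.9% of genes were in both aliquots and 12.1% in unshared barcodes. Intervals given with levels, shares and ratios are exact 95% intervals, those of differences are Newcombe 95% intervals, and all of them cover counting error only. UMIs of 1 cell are not independent, and the intervals do not cover the spread between cells.

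Tpm1, the α-tropomyosin of striated muscle and the source of several cytoskeletal forms, was at 65.5 CPM (51.3 to 82.4) in shallow non-cycling and 597 CPM (576 to 619) in deep barcodes of the 10% aliquot, which is 9.11-fold higher. In the 90% aliquot the levels were 80.1 and 666 CPM, and in its unshared barcodes 83.7 and 664 CPM, which is 7.94-fold. Single deep barcodes of the 10% aliquot ranged from 47.0 to 2705 CPM with a median of 528, and shallow non-cycling barcodes from 0 to 1203 with a median of 0. The ranges overlapped, and a UMI of Tpm1 was found in every deep barcode but in 19.7% of shallow non-cycling barcodes. With each barcode thinned to 3000 UMIs the shares were 78.5% and 12.1%. In unshared barcodes the thinned shares were 81.7% and 11.2%. No class in these tables lacks tropomyosin, so the level that free RNA adds to a barcode could not be read from a negative cell type. At like depth, Tpm1 differed with the cell cycle genes. The 21 barcodes with 3000 to 15000 UMIs and at least 1 UMI of Rrm2, Top2a or Cdk1 had 441 CPM (343 to 558), and 328 CPM in the 90% aliquot and 351 in its unshared barcodes. With these cycling barcodes added to the shallow class, the ratio of shallow to deep in the 10% aliquot was 0.187, against 0.110 (0.0858 to 0.138) without them. The 9 deep barcodes without a UMI of these 3 genes were at 584 CPM when summed, with a median of 227 CPM over single barcodes and 1 at 2705 CPM. In the 90% aliquot deep barcodes of this kind were at 1054 CPM and in its unshared barcodes at 1038 CPM.

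Tpm2, the β-tropomyosin, was at 22.4 CPM (14.5 to 33.1) in shallow non-cycling and 106 CPM (97.5 to 116) in deep barcodes, a ratio of 0.211 (0.135 to 0.315). The ratio was 0.264 (0.226 to 0.307) in the 90% aliquot and 0.278 in unshared barcodes. Long reads gave a ratio of 0.342. A UMI of Tpm2 was found in 12.7% and 88.6% of barcodes, and in 7.64% and 25.3% after thinning. Shallow cycling barcodes had 102 CPM of Tpm2 in the 10% aliquot, 83.8 CPM in the 90% aliquot and 88.0 CPM in unshared barcodes, and the intervals of their ratio to deep barcodes, 0.962 (0.546 to 1.58), 0.807 (0.642 to 1.0006) and 0.834 (0.658 to 1.04), included 1. For Tpm1 the same ratios were 0.739 (0.573 to 0.938), 0.493 (0.441 to 0.549) and 0.528 (0.471 to 0.590), below the deep barcodes.

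Tpm3 and Tpm4, which give mainly cytoskeletal tropomyosins outside slow and cardiac muscle, differed less. Tpm3 was at 192 CPM (167 to 220) in shallow non-cycling and 166 CPM (155 to 177) in deep barcodes, a ratio of 1.16 with an interval from 0.991 to 1.35 that includes 1. The 90% aliquot gave 1.35 (1.28 to 1.43) and unshared barcodes 1.38. Against the deep barcodes without a UMI of the cell cycle genes the ratio was 1.54, 1.78 and 1.73 in the same order. Tpm4 was at 158 CPM (135 to 183) and 212 CPM (199 to 225), a ratio of 0.746 (0.632 to 0.875). The ratio was 0.615 (0.580 to 0.651) in the 90% aliquot and 0.615 in unshared barcodes. Against deep barcodes without cell cycle UMIs it was 1.27 (0.877 to 1.88) in the 10% and 0.892 (0.784 to 1.02) in the 90% aliquot, with intervals that include 1, and 0.862 (0.754 to 0.989) in unshared barcodes. After thinning, a Tpm3 UMI was found in 38.2% of shallow non-cycling and 29.1% of deep barcodes, and a Tpm4 UMI in 29.3% and 45.6%.

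Myl6 was at 138 CPM (117 to 162) in shallow non-cycling and 216 CPM (204 to 229) in deep barcodes, a ratio of 0.639 (0.537 to 0.757). The 90% aliquot gave 0.791 (0.747 to 0.838) and unshared barcodes 0.796. Deep barcodes ranged from 30.003 to 769 CPM with a median of 185, and shallow non-cycling barcodes from 0 to 1038 with a median of 105, so the classes overlapped almost fully. After thinning, 29.9% and 44.3% of barcodes had a UMI of Myl6. Short reads of Myl6 are uncertain because the genome holds near-identical processed copies that also received UMIs. Of the 31-base windows of Gm5526, 80.2% also occur in Myl6 transcripts, and it had 1832 UMIs in the 10% aliquot. The share was 76.5% for Gm10080, which had 1902 UMIs, and Gm5915 and Gm8894 had 1192 and 435. None of these copies has a counted long-read isoform. With the copies added, Myl6 was at 671 CPM in shallow non-cycling and 1079 CPM in deep barcodes, with a ratio of 0.622 (0.575 to 0.671) in the 10% aliquot, 0.638 in the 90% aliquot and 0.636 in unshared barcodes. Tpm3 summed with Tpm3-rs7, a protein-coding copy with 642 UMIs, gave 1.11, 1.33 and 1.38, and Tpm4 summed with Gm7809 gave 0.774, 0.624 and 0.622.

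**Figure D1:**
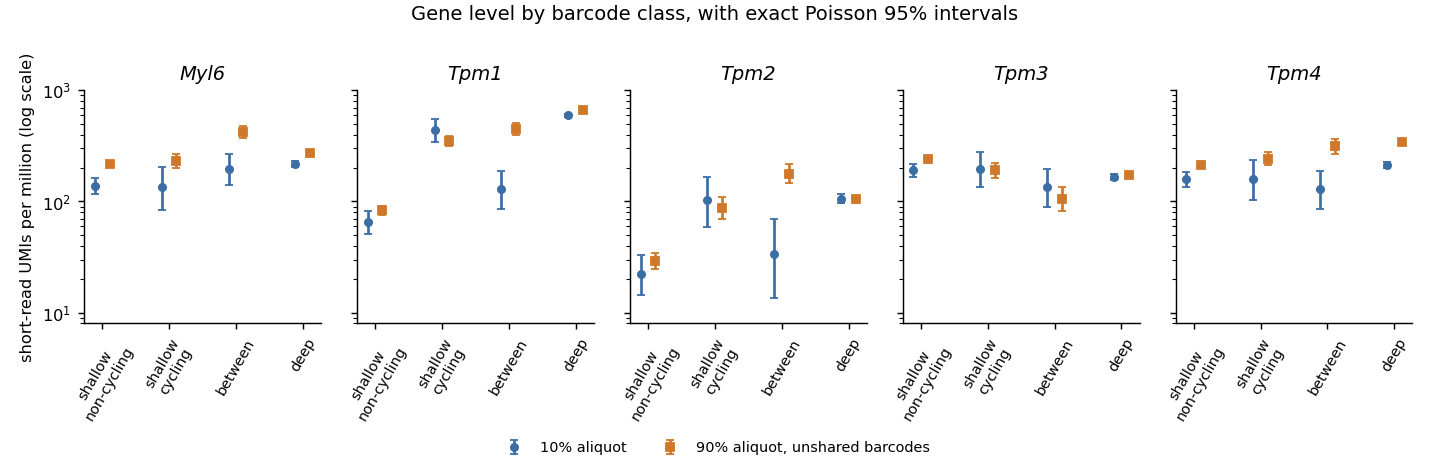
Short-read level of each gene (CPM, log axis) in 4 classes of barcode, with circles for the 10% aliquot, squares for unshared barcodes of the 90% aliquot and bars for exact 95% Poisson intervals. In both aliquots Tpm1 and Tpm2 are lower in shallow non-cycling than in shallow cycling and deep barcodes, while Tpm3 is at 192 and 166 CPM in shallow non-cycling and deep barcodes of the 10% aliquot.

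In the isoform counts, no member gene had an isoform whose share of the gene's long-read UMIs differed by 20 percentage points or more between the classes, as 17.5% of the 3230 genes with at least 50 UMIs in both classes had. At 10 points the background was 54.1%, and Myl6 (-18.3 points, shallow non-cycling minus deep) and Tpm2 (10.5 points) passed. The largest single differences of Tpm1, Tpm4 and Tpm3 were -7.07, -3.30 and 2.26 points, and the median size over the 3230 genes was 10.7 points. The 104 isoforms held 2235 UMIs in shallow non-cycling and 13203 in deep barcodes. All 104 had a UMI in deep barcodes and 11 had none in shallow non-cycling barcodes, where the depth was lower.

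Myl6 had 25 isoforms with 535 UMIs in shallow non-cycling and 2523 UMIs in deep barcodes. Myl6-206, which includes the 45-base exon, held 36.6% of Myl6 UMIs (196 UMIs in 69 barcodes) in shallow non-cycling and 18.99% (479 UMIs in 71 barcodes) in deep barcodes, a difference of 17.7 points (13.4 to 22.1). Myl6-201, which skips it, held 15.5% (83 UMIs) and 33.8% (853 UMIs), a difference of -18.3 points (-21.7 to -14.5). The order of these 2 isoforms was therefore opposite in the 2 classes. The processed copies Gm10080 and Gm5526 hold the sequence of the junction that skips the exon, and no copy holds the junction that includes it. Whether long reads of Myl6-201 were lost to these copies was not tested. An unnamed isoform that starts at 128493857 and runs on to 128490150 held 13.8% (74 UMIs) and 29.7% (749 UMIs). Myl6-202, whose last exon runs on from exon 5 through the sequence that the other forms splice out, held 5.98% (32 UMIs) and 2.06% (52 UMIs), a difference of 3.92 points (2.09 to 6.31). Myl6-211 held 0.748% and 1.31%, Myl6-205 held 0.187% and 1.23%, and the other 19 isoforms together held 27.1% and 12.9% with none above 4.86%.

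Counted only over Myl6-206 and Myl6-201, which differ in the 45-base exon, the exon was included in 70.3% of UMIs (64.5 to 75.6, 196 of 279) of shallow non-cycling and 35.96% (33.4 to 38.6, 479 of 1332) of deep barcodes. The difference was 34.3 points (28.1 to 39.9), and 41.2 points without barcodes that hold markers of other cells. The pair was chosen after the data had been seen, and no background over all genes was computed for it. Shallow cycling barcodes lay between, at 51.2% (35.1 to 67.1, 21 of 41), which was 19.03 points (3.46 to 34.6) under shallow non-cycling barcodes of like depth and 15.3 points (0.293 to 30.004) over deep ones. Deep barcodes without a UMI of the cell cycle genes were at 35.6% (32 of 90), like the other deep barcodes. Among shallow non-cycling barcodes, those without a Myod1 UMI were at 66.7% (78 of 117) and those with at least 1 at 72.8% (118 of 162), with an interval of the difference from -17.1 to 4.59 points. Barcodes between the 2 depth ranges were at 54.1% (33 of 61).

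**Figure D2:**
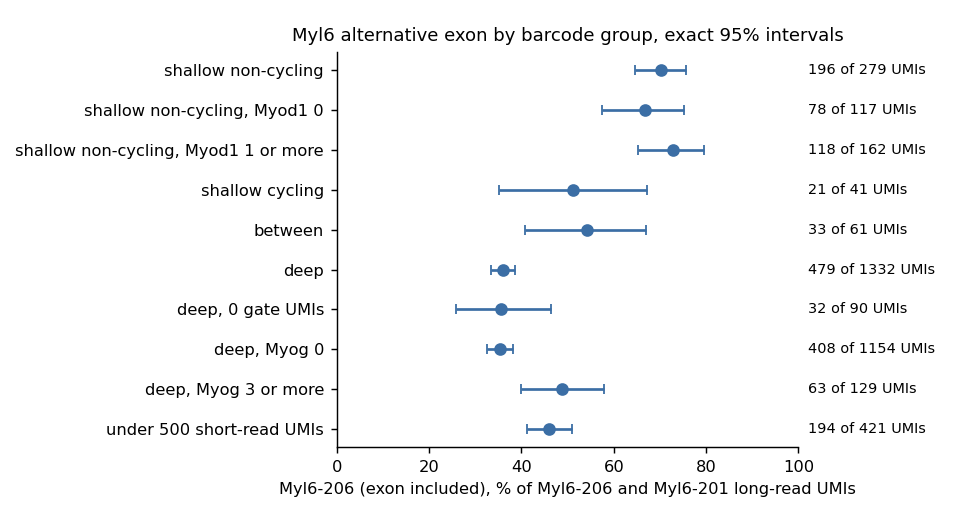
Share of Myl6-206 among UMIs of Myl6-206 and Myl6-201 (%) in groups of barcodes of the 10% aliquot, with the number of UMIs beside each point and exact 95% intervals as bars. Shallow non-cycling barcodes are at 70.3%, shallow cycling at 51.2% and deep at 35.96%.

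The medians of single barcodes also differed, while the shares ranged from 0% to 100% in both classes. Over the 46 shallow non-cycling barcodes with at least 3 UMIs of the 2 isoforms the median share of Myl6-206 was 94.4% (quartiles 66.7 and 100.0), and over 74 deep barcodes it was 32.5% (20.0 and 46.0). With any UMI counted, 46 of 93 shallow non-cycling barcodes showed only the included form, 24 only the skipped form and 23 both, while 68 of 79 deep barcodes showed both forms. The low number of Myl6 UMIs in a shallow barcode limits how often both forms can be seen in it.

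**Figure D3:**
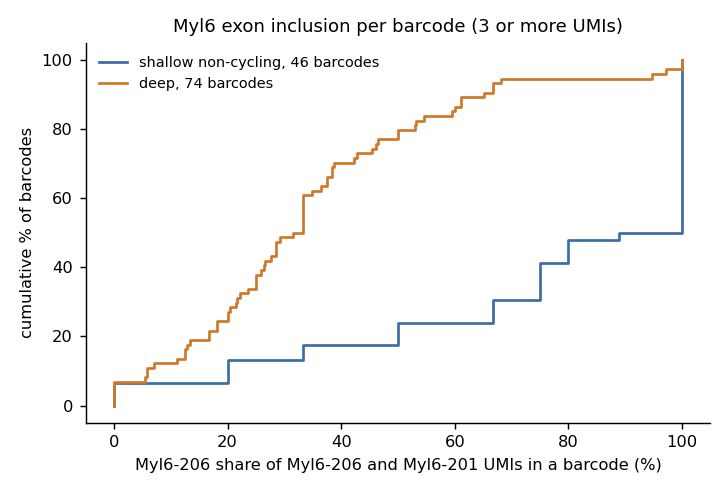
Cumulative share of barcodes (%) by their percentage of Myl6-206 among Myl6-206 and Myl6-201 UMIs, for the 46 shallow non-cycling and 74 deep barcodes with at least 3 such UMIs. The median is 94.4% in shallow non-cycling and 32.5% in deep barcodes.

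The start of Myl6 did not separate the classes, with 93.8% of UMIs at the main start in shallow non-cycling and 94.8% in deep barcodes. The 3′ end did. Isoforms ending at 128490150, which is 710 bases past the annotated end and 333 bases inside the annotated span of Smarcc2 on the other strand, held 14.8% of UMIs (79 UMIs in 47 barcodes) in shallow non-cycling and 30.4% (766 UMIs in 76 barcodes) in deep barcodes. The difference was 15.6 points (11.9 to 18.9) toward the longer end in deep barcodes. Shallow cycling barcodes were at 31.2% (25 of 80 UMIs) and deep barcodes without cell cycle UMIs at 30.4%, both close to all deep barcodes. None of the named isoforms has this end, so the difference rests on unnamed isoforms, and their use of the 45-base exon was not read.

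Tpm1 had 29 isoforms with 245 UMIs in shallow non-cycling and 5215 in deep barcodes, and unnamed isoforms led. An unnamed isoform from 67049290 to 67022590 held 18.4% (45 UMIs) in shallow non-cycling and 23.5% (1224 UMIs) in deep barcodes, a difference of -5.10 points (-9.61 to 0.339). Another from 67049213 to the same end held 13.5% (33 UMIs) and 20.5% (1071 UMIs), a difference of -7.07 points (-10.9 to -2.11) that was -0.257 points when the classes were set by long-read UMIs (250 and 79 barcodes). Tpm1-205, the reference form with exons 6b and 9a and 284 codons, held 11.4% (28 UMIs) and 12.04% (628 UMIs). Tpm1-213, the form with 6a and 9d, held 5.71% (14 UMIs) and 6.71% (350 UMIs). The intervals of the difference included 0 for both. Other named forms were Tpm1-201 (4.49% and 2.76%), Tpm1-211 (2.86% and 1.71%), Tpm1-212 (2.45% and 1.69%), Tpm1-203 (0.816% and 1.86%) and Tpm1-206 (1.22% and 0.0575%, 3 UMIs each).

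Tpm1 has an upstream promoter, which gives the long tropomyosins, and an internal promoter, which gives the short cytoskeletal ones with 248 codons, such as Tpm1-211 and Tpm1-212. Starts at the internal promoter (67043733 to 67043927) held 18.8% of Tpm1 UMIs in shallow non-cycling barcodes (46 UMIs in 23 barcodes) and 9.36% (488 UMIs) in deep barcodes, a difference of 9.42 points (4.95 to 14.8). Starts at the upstream promoter (67049143 to 67049290) held 80.4% (197 UMIs) and 89.9% (4688 UMIs), a difference of -9.49 points (-15.0 to -4.92). Against shallow cycling barcodes (15.5%, 15 of 97 UMIs) the share of internal starts in shallow non-cycling barcodes differed by 3.31 points (-6.25 to 11.3). Among shallow non-cycling barcodes it was 24.8% (31 of 125) without a Myod1 UMI and 12.5% (15 of 120) with at least 1, a difference of 12.3 points (2.51 to 21.8). The difference of the upstream start between the classes was -2.72 points without the barcodes that hold markers of other cells. An unnamed short form from 67043927 to 67022590 held 7.35% (18 UMIs) and 3.39% (177 UMIs), a difference of 3.95 points (1.25 to 7.95).

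Exon choice in Tpm1 was read from the named isoforms only, since the exon structures of unnamed isoforms were not used. Unnamed isoforms held most Tpm1 UMIs in both classes, so the exon shares below leave out most Tpm1 UMIs. Exon 6b was present in 69.0% (49 of 71 UMIs) in shallow non-cycling and 62.6% (899 of 1436) in deep barcodes, a difference of 6.41 points with an interval from -5.35 to 16.3. Exon 9a was counted together with Tpm1-201, which lacks it as a separate exon but has a long last exon that begins with its sequence. This sequence was present in 57.7% (41 of 71) and 60.7% (871 of 1436), a difference of -2.91 points (-14.8 to 8.19). As a separate exon, without Tpm1-201, it was present in 42.3% (30 of 71) and 50.6% (727 of 1436), a difference of -8.37 points (-19.5 to 3.51). With 71 UMIs in the shallow class, differences of this size were not detectable. The downstream end at 67022590 held 60.4% and 65.9% of all Tpm1 UMIs (difference -5.54 points, -11.9 to 0.522), and ends in the upstream last exon (67027892 to 67028048) held 26.5% and 26.4%.

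**Figure D4:**
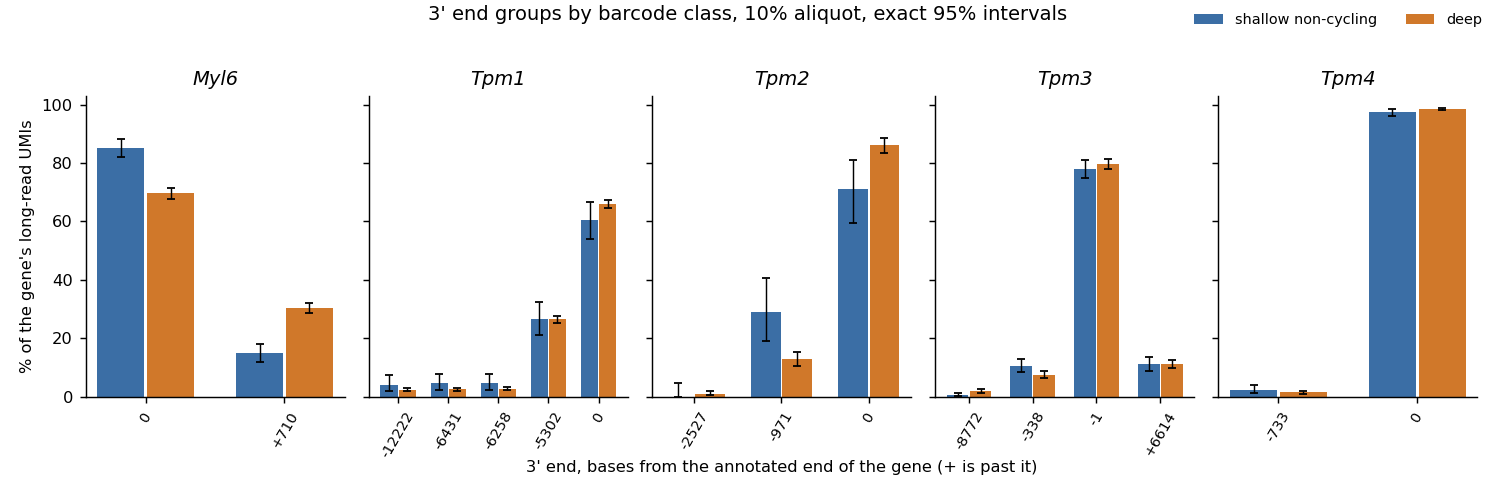
Share of the UMIs of each gene (%) by group of 3′ ends, given as distance in bases from the annotated end of the gene, in shallow non-cycling (blue) and deep (orange) barcodes with exact 95% intervals. The end of Myl6 that lies 710 bases past the annotated end is higher in deep barcodes (30.4% against 14.8%), and the end of Tpm2 inside the long last exon is higher in shallow non-cycling barcodes (28.9% against 12.8%).

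Within the deep class, exon and end choice in Tpm1 differed with Myog, the myogenic factor of committed myocytes. Myog was at 1.79 CPM in shallow non-cycling and 33.1 CPM in deep barcodes, and 8 deep barcodes had at least 3 Myog UMIs (3 to 81, median 8), while 67 had none. Their depth was like that of the others, with medians of 61624.5 and 65373 UMIs. In the barcodes with Myog, exon 6b was present in 93.1% of named Tpm1 UMIs (148 of 159), against 56.1% (655 of 1168) in those without, a difference of 37.0 points (31.2 to 41.2). The largest barcode with Myog held 57 of the 159 UMIs. Unnamed isoforms, which held most Tpm1 UMIs, are not in these exon shares. The sequence of exon 9a, Tpm1-201 included, was present in 84.3% (134 of 159) against 54.6% (638 of 1168), a difference of 29.7 points (22.6 to 35.3). As a separate exon it was present in 78.6% (125 of 159) against 44.1% (515 of 1168), a difference of 34.5 points (26.95 to 40.8). Exons 6b and 9a together are those of the striated muscle form. Exon 6b also occurs without exon 9a, as in the short cytoskeletal form Tpm1-211. Over single barcodes with at least 3 such UMIs, the share of exon 6b ran from 50% to 100% with a median of 94.2% in 6 barcodes with Myog, and from 0% to 100% with a median of 55.1% in 56 without. The share of the exon 9a sequence had medians of 86.7% and 52.9%. The ranges overlapped in both cases.

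Over all Tpm1 isoforms, unnamed ones included, ends in the upstream last exon held 49.2% of UMIs (246 of 500, in 7 barcodes, 81 of them in 1) in barcodes with Myog and 22.1% (959 of 4344) in those without, a difference of 27.1 points (22.6 to 31.7). The downstream end held 46.6% and 69.9%, a difference of -23.3 points (-27.8 to -18.7). Deep barcodes without cell cycle UMIs had 44.1% of ends in the upstream last exon. Exon 6b was present in 73.5% of their named Tpm1 UMIs, against 61.8% in deep barcodes with cell cycle UMIs. For exon 9a as a separate exon the shares were 63.7% and 49.6%. How far the differences with Myog and with the cell cycle genes come from the same barcodes was not tested. The total level of Tpm1 moved less with Myog, at 623 against 577 CPM in the 10% aliquot, a ratio of 1.08 (0.957 to 1.21). In the 90% aliquot it was 896 against 614 CPM, a ratio of 1.46 (1.40 to 1.52), and 1.53 in unshared barcodes. The limit of 3 Myog UMIs was chosen after the data had been seen, and limits of 1 and 10 UMIs gave differences of 34.97 and 37.7 points for exon 6b.

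**Figure D5:**
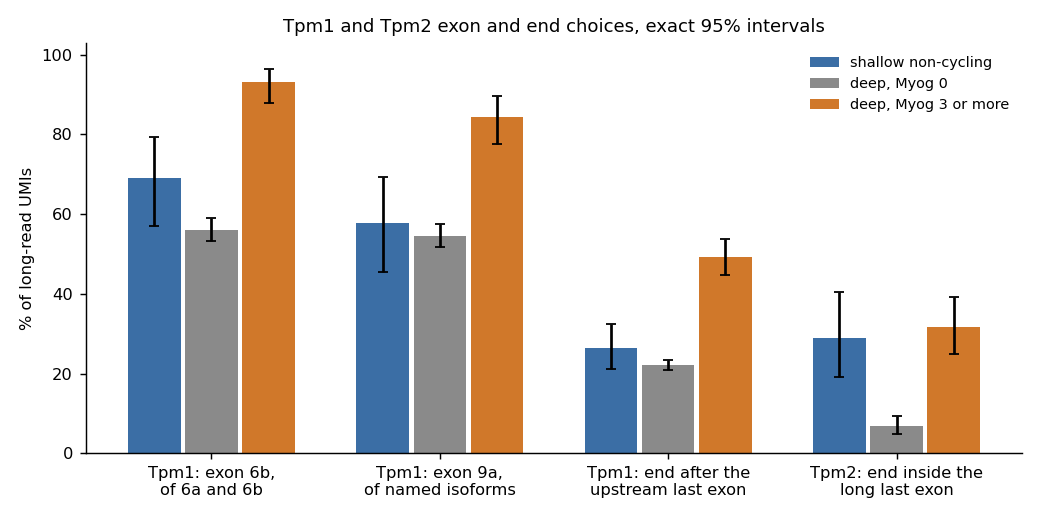
Share of UMIs (%) with exon 6b or with exon 9a (Tpm1-201 included) among named Tpm1 isoforms, with ends in the upstream last exon of Tpm1 and with ends inside the long last exon of Tpm2, in shallow non-cycling barcodes, deep barcodes without Myog UMIs and deep barcodes with at least 3, with exact 95% intervals. In deep barcodes with Myog all 4 shares are higher than in deep barcodes without, as for exon 6b at 93.1% against 56.1%.

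Tpm2 had 27 isoforms with 76 UMIs in shallow non-cycling and 743 in deep barcodes, so its shares in the shallow class are the least certain of the 5 genes. Tpm2-203, which has exon 6a and the short last exon of the non-muscle and smooth muscle form, held 15.8% (12 UMIs) and 20.7% (154 UMIs). Tpm2-201 held 2.63% and 4.04%, and Tpm2-202, the form with exon 6b, held 1.32% (1 UMI) and 4.58% (34 UMIs). The lead difference came from an unnamed isoform that starts at 43523558 and ends at 43515682, inside the long last exon of Tpm2-201 and Tpm2-202. It held 17.1% (13 UMIs) in shallow non-cycling and 6.59% (49 UMIs) in deep barcodes, a difference of 10.5 points (3.39 to 20.6). With classes set by long-read UMIs the difference was 2.84 points, and as a mean over barcodes it was 20.8 points. All isoforms with this end together held 28.9% (22 UMIs in 13 barcodes) and 12.8% (95 UMIs), a difference of 16.2 points (6.81 to 27.4), or 32.2 points as a mean over barcodes. The annotated end at 43514711 held 71.1% and 86.3%. The start did not separate the classes (97.4% and 96.6% at the main start).

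Deep barcodes with Myog differed in Tpm2 as in Tpm1. The end at 43515682 held 31.8% of Tpm2 UMIs (54 of 170, in 6 barcodes, 30 of them in 1) with Myog and 6.81% (37 of 543) without, a difference of 24.95 points (17.98 to 32.5). It was 14.4 points without the barcode with most Tpm2 UMIs of each group. Deep barcodes without cell cycle UMIs were at 37.4% (34 of 91). Among named isoforms the long last exon was present in 63.0% (17 of 27) with Myog and 25.6% (46 of 180) without, a difference of 37.4 points (17.5 to 54.0), and exon 6b in 29.6% (8 of 27) and 13.9% (25 of 180), a difference of 15.7 points (0.789 to 35.1). Named isoforms held 29.3% of Tpm2 UMIs in deep barcodes, so these exon shares leave out most Tpm2 UMIs. The level of Tpm2 was 163 against 100.1 CPM, a ratio of 1.63 (1.27 to 2.06), and the ratio was 1.54 in the 90% aliquot and 1.60 in unshared barcodes. In Myl6 the 45-base exon was included in 48.8% (63 of 129) with Myog and 35.4% (408 of 1154) without, a difference of 13.5 points (4.56 to 22.4).

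Tpm3 had 16 isoforms with 749 UMIs in shallow non-cycling and 2012 in deep barcodes, and 1 of them is named. All UMIs in both classes came from isoforms that start at the internal promoter (90079654 to 90079665), which gives short cytoskeletal tropomyosins. The lead isoform, unnamed, from 90079665 to 90100901, held 61.3% (459 UMIs) and 60.1% (1209 UMIs). Tpm3-202, the named short form of 248 codons, held 0.267% (2 UMIs) and 1.39% (28 UMIs), a difference of -1.12 points (-1.77 to -0.304). An unnamed isoform ending upstream at 90100564 held 6.28% (47 UMIs) and 4.27% (86 UMIs), a difference of 2.001 points (0.192 to 4.13). Ends that lie 6614 bases past the annotated end, inside the annotated span of Nup210l on the same strand, held 11.1% in both classes. Among the deposited annotation's 5801 reads for Tpm3, 84.8% supported the first sixth exon and 7.48% the second, without regard to class. No single isoform of Tpm3 moved by more than 2.26 points. All isoforms that end at 90100564 together held 10.5% and 7.46%, a difference of 3.09 points (0.742 to 5.72). The end at 90092130 held 0.401% and 1.79%, a difference of -1.39 points (-2.12 to -0.474).

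Tpm4 had 7 isoforms with 630 UMIs in shallow non-cycling and 2710 in deep barcodes. Tpm4-201, of 248 codons, held 78.7% (496 UMIs in 101 barcodes) and 82.0% (2223 UMIs in 78 barcodes), a difference of -3.30 points (-6.94 to 0.0652). An unnamed isoform that starts upstream at 72134975 and shares the end of Tpm4-201 held 6.83% (43 UMIs in 20 barcodes) and 3.54% (96 UMIs in 47 barcodes), a difference of 3.28 points (1.40 to 5.61). The only annotated transcript with this start is Tpm4-202, which is annotated as non-coding and ends upstream of the last exon of Tpm4-201. The annotated end held 97.6% and 98.5% of Tpm4 UMIs.

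The tropomyosins act on actin filaments together with actins, myosin chains, tropomodulins, caldesmon, calponins, troponins and other actin-binding proteins, for which a list of 43 genes was used. Of the 27 list genes with at least 10 CPM in the 10% aliquot, 10 were at least 2-fold higher in deep and 3 in shallow non-cycling barcodes, beside 18.6% and 11.9% of all genes at this level. The other 16 list genes had a lower level or no entry in the table. The 10 were also past this fold in the 90% aliquot, in which 29 were measured. They include the cytoskeletal actins Actb (488 CPM in shallow non-cycling, 1370 CPM in deep barcodes) and Actg1 (921 and 2032 CPM), the actin regulators Cfl1 (395 and 1103 CPM) and Pfn1 (10.8 and 66.7 CPM), the crosslinkers Actn1 and Flna, and the light chain Myl9 (1.79 and 15.7 CPM). The troponins Tnnt2 (0 UMIs against 113) and Tnni2 (5.38 and 27.5 CPM) were also among them. The 3 genes higher in shallow non-cycling barcodes were the caldesmon gene Cald1 (437 and 203 CPM), Tagln (87.9 and 6.86 CPM), an actin-bundling protein of smooth muscle, and the filament-severing Gsn (258 and 33.5 CPM). The median deep to shallow ratio over the list was 1.13 in the 10% aliquot and 1.10 in the 90% aliquot, beside 1.12 over all genes in each. The 6 smooth muscle and pericyte markers summed to 85.2 and 78.6 CPM in shallow non-cycling and deep barcodes of the 10% aliquot, to 92.4 and 48.0 CPM in the 90% aliquot and to 92.2 and 43.0 CPM in unshared barcodes, with most of the sum from Acta2. Their part in the levels of Tagln and Cald1 was not tested.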

How the data were processed

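The authors deposited UMI counts per gene for each aliquot (short reads, counted with scPipe) and UMI counts per isoform for the 10% aliquot (long reads, FLAMES), none of them normalized. FLAMES merges transcripts whose splice sites lie within a few bases and whose ends lie within 100 bases. The submitters' processing notes list Cell Ranger 1.3, minimap2 2.17 and GRCm38 p6. Gene names, exons and reference transcripts were taken from Gencode vM21. The deposited isoform annotation was used for read support only.

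Summed counts were divided by the total of the class (CPM). Shares have exact (Clopper-Pearson) intervals, levels exact Poisson intervals, ratios exact conditional intervals and differences Newcombe intervals, all at 95%. Because cells of 1 capture are not replicates, no test between classes was run. Starts and ends were grouped where neighbours lie within 100 bases. Named isoforms are given from 1% and unnamed ones from 5% of the gene in either class. Levels were compared 2-fold after adding 10 CPM, among genes with at least 10 CPM in either class. Barcodes were thinned to 3000 UMIs with a fixed seed. Scrublet in scanpy 1.11.5, run on barcodes with at least 1000 UMIs, called 0 of 330 and 3 of 2420 doublets, which were kept in the values reported. Python 3.11.15, scipy 1.17.1, pandas 2.3.3, numpy 2.4.6 and matplotlib 3.10.9 were used, and the functions were tested on simulated data.

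The members, classes and gene lists were chosen with earlier results of these data known. Alternatives were other depth limits, classes by long-read UMIs, no cell cycle gate, doublets removed, means over barcodes, named isoforms alone, other gaps, folds and added CPM. Further alternatives (copies added, barcodes with other markers or with most UMIs left out, shared barcodes left out, other Myog limits, exon 9a without Tpm1-201) were chosen after seeing the data. A gene of the actomyosin list is not reported here by name.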

Additional observations from a re-analysis of the deposited data

Results flagged for a closer look

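The classes leave out the 1612 barcodes with under 500 short-read UMIs in the 10% aliquot, which nevertheless held 1637283 long-read UMIs beside 49698 short-read UMIs (medians of 585 and 16 a barcode). In these barcodes the long-read UMIs numbered 889 for Myl6, 1340 for Tpm1, 292 for Tpm2, 737 for Tpm3 and 998 for Tpm4. Each number is above the limit of 3 UMIs that a count of 0 allows, which is why these values are given. They are sums over 1612 barcodes, so passing this limit says nothing about a single barcode. The long-read levels were 543, 818, 178, 450 and 610 CPM in the same order. The share of Myl6-206 among Myl6-206 and Myl6-201 was 46.1% (194 of 421), the longer 3′ end of Myl6 held 21.8% and exon 6b was present in 64.4% of named Tpm1 UMIs.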

How the results depend on the processing

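Of 237 recomputed values, 197 moved by less than their interval or by less than 1.5 times for counts of genes, 40 moved further and 0 changed sign where the interval excluded 0. The classes could not be paired by replicate because there was 1 capture. With classes set by long-read UMIs, the leading isoform difference (points, shallow non-cycling minus deep) went from -7.07 to -0.257 for Tpm1 and from 10.5 to 2.84 for Tpm2, and Myl6 exon inclusion from 34.3 to 26.5. As a mean over barcodes, values went to 20.8 (isoform, Tpm2), -0.393 (start, Myl6, from 1.12), -3.25 (start, Tpm2, from -0.838), 32.2 (end, Tpm2, from 16.2) and 41.3 (Myl6 exon). Without barcodes holding other markers, chosen after seeing the data for starts and for the exon, they were -22.4 (Myl6-201, from -18.3), -2.72 (upstream start of Tpm1, from -9.49) and 41.2 (Myl6 exon). With named isoforms alone, the Myl6 difference was -32.4 and the end differences were 0 for Myl6 (from 15.6, no named isoform has the longer end) and 1.33 for Tpm1 (from -5.54). Named isoforms alone could give no value where the leading isoform is unnamed or 1 is named. A gap of 30 bases split the upstream starts of Tpm1 and left -1.51. The Tpm2 end with Myog was 14.4, from 24.95, without the top barcode of each group.

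Ratios of levels in the 10% aliquot moved from 0.110 to 0.187 (no gate) and 0.157 (long reads) for Tpm1 and from 0.211 to 0.342 (long reads) for Tpm2. In the 90% aliquot they moved from 0.120 to 0.148 (minimum 5000 UMIs), 0.171 (no gate), 0.102 (mean over barcodes) and 0.107 (no other markers) for Tpm1, from 0.264 to 0.334, 0.338, 0.217 and 0.216 for Tpm2, from 1.35 to 1.17 (minimum 5000) and 1.43 (mean) for Tpm3 and from 0.791 to 0.638 (with copies) for Myl6. Over all genes, 564 passed 20 points, against 1746 at 10 points, 184 at 30 points, 194 with at least 100 UMIs and 63 with named isoforms alone. The 2221 genes at 2-fold in the 10% aliquot became 4027 at 1.5-fold, 842 at 3-fold and 3539 with 1 CPM added, and the 2281 of the 90% aliquot became 4167, 905 and 3632. Depth limits Tpm2 most, with 76 long-read UMIs in shallow non-cycling barcodes.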

Other observations

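Across the 606 deep barcodes of the 90% aliquot, the genes whose log2(CPM + 1) followed each member most closely were named from 7357 genes, with Pearson's r given as a description (the barcodes share capture, library and depth) and r over the 79 deep barcodes of the 10% aliquot beside it. For Myl6 they were its processed copies Gm5526 (0.812, 0.761), Gm10080 (0.791, 0.748) and Gm5915 (0.626, 0.729), and for Tpm3 the copy Tpm3-rs7 came first (0.532, 0.574), and these copies share most of their sequence with the member. For Tpm1 they were Gm9844 (0.340, 0.600), Tmsb10 (0.326, 0.604) and Gm3788 (0.321, 0.569), for Tpm4 they were Prelid3b (0.405), Arf4 (0.392) and Eif5a (0.378), and for Tpm2 they were Des (0.296, 0.144), Tpm1 (0.236, 0.113) and Pepd (0.225, 0.357). The last values are low, and Des and Tpm1 were lower still in the 10% aliquot. Among pairs of members, r was highest for Tpm3 with Tpm4 (0.330, and 0.278 in the 10% aliquot), and Myl6 with Tpm1 was at 0.0247 and 0.214.

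In the deposited isoform annotation, which counts reads without regard to barcode, 79.5% of 10742 Tpm1 reads supported exon 6b, 14.1% exon 6a and 26.1% exon 9a, and 48.3% and 47.5% of 1815 Tpm2 reads supported exons 6a and 6b. These reads include isoforms without a reference name. Among named isoforms of deep barcodes, exon 6b was lower, at 62.6% in Tpm1 and 15.6% in Tpm2. The 45-base exon of Myl6 had the support of 26.5% of 6044 reads. Exon 2a of Tpm1, the second exon of the smooth muscle form, had 27 reads (0.251%), and no counted named isoform holds it.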
